A study of Mus musculus with 6 samples.

Results

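Broad H3K4me3 domains are stretches of chromatin in which histone H3 trimethylated at lysine 4 runs on for several kilobases past the usual extent of a promoter mark. In mature T cells of the mouse thymus, 742 domains of 3 kb or more were found among 17327 H3K4me3 domains in all, which is 4.28%. They were chosen from the reads themselves. The CD4 and CD8 H3K4me3 libraries were pooled, as were the 2 inputs, and read midpoints on chromosomes 1 to 19 were counted in bins of 200 bp. A bin was marked where its RPM, reads per 1000000 reads of the library, were at least 4 times those of the pooled input, with the input taken as at least 3 reads. Marked bins were joined over gaps of up to 400 bp, and domains needed at least 20 reads. Width and H3K4me3 level therefore describe the choice and are given with no test. Positions are in mouse build mm9.

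The study mapped 2 histone modifications in mature CD4+ and mature CD8+ T cells taken from the thymus of C57BL/6 mice, after micrococcal nuclease had cut the chromatin to mononucleosomes. Each cell type has 1 H3K4me3 library, 1 H3K36me3 library and 1 input library with no antibody, 6 libraries in all. Age, number of animals and purity of the sorted cells are not stated in the labels. With 1 library a group there is no replicate, so no p-value is given, and every interval below compares libraries rather than cell types. Intervals of a read ratio cover counting error only. Intervals of a share of domains are binomial and treat the domains as independent, which neighbouring ones are not. In bulk chromatin, fewer cells carrying a mark and less of the mark per cell cannot be told apart.

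H3K4me3 is laid down around active and poised gene starts by SET1 and MLL methyltransferases. H3K36me3 is laid down by SETD2, which travels with elongating RNA polymerase II, so it fills the bodies of transcribed genes and normally begins where H3K4me3 ends. In many cell types the widest H3K4me3 domains lie at genes of cell identity, and for T cells Tcf7, Satb1 and Ets1 (transcription factors), Ccr7 (a homing receptor) and Pik3cd (a signalling kinase) are examples. No mm9 annotation was used here, so domains are named by position, none of these genes was placed on a domain, and the cell type was not checked against its marker genes.

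On chromosomes 1 to 19 the depth of H3K4me3 was 10491937 reads for CD4 cells and 11878642 for CD8 cells. H3K36me3 had 6599587 and 6604331 reads in CD4 and CD8 cells, and the inputs 9913123 and 9716101. The 2 H3K4me3 libraries were not alike in quality. Distinct start positions made up 54.3% of CD4 and 31.3% of CD8 H3K4me3 reads, against 91.1% to 97.6% in the other 4 libraries. Away from domains, H3K4me3 reads lay at 22.1% of the input level for CD4 and 1.96% for CD8. These differences move with every CD4 against CD8 value of H3K4me3 below. Their part in those values was not tested beyond the counts of distinct positions and the subtraction of background given below.

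The broad domains were a tail of the width distribution rather than a separate group. Their median width was 3600 bp (quartiles 3200 and 4400 bp) and the widest spanned 43.8 kb, while the 16585 domains under 3 kb had a median of 1000 bp. By width, 444 measured 3 to 3.8 kb, 174 measured 4 to 4.8 kb, 103 measured 5 to 7.8 kb and 21 measured 8 kb or more. At the threshold itself 136 domains were 3000 bp wide with a median of 2482 pooled reads, and 179 were 2800 bp wide with a median of 2568. Just inside it, chr2:13495001-13498000 held 2797 CD4 and 4167 CD8 reads and chr11:103204801-103207800 held 3016 and 3260. Just outside it, at 2.8 kb, chr7:149646601-149649400 held 2760 CD4 and 3092 CD8 reads and chr1:132612001-132614800 held 1966 and 3639. Members on either side of the line thus carried like amounts of the mark.

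Though few, these domains held a share of the mark in domains that was close to their share of domain width. They covered 3.06 Mb of the 20.7 Mb in all domains and carried 12.4% of CD4 and 12.6% of CD8 H3K4me3 reads. All domains together carried 75.3% of CD4 and 96.7% of CD8 H3K4me3 reads. The broad domains held 0.090% of CD4 and 0.076% of CD8 input reads, and their excess over input follows from the rule. A broad domain held between 285 and 15341 pooled H3K4me3 reads, with a median of 3391. Its median density was 37.2 RPM per kb for CD4 and 39.0 for CD8, against 21.2 and 25.3 in domains under 3 kb. Domains of 2 to 2.8 kb were close to this in CD4 cells, at 35.7 RPM per kb, and denser in CD8 cells, at 47.9. With either input library in place of the precipitate and the other as its input, the same rule found 0 domains of 3 kb or more. Input reads averaged 4.01 per kb in CD4 and 3.93 in CD8 cells. That is too few to reach 4 times the floor of 3 reads in bins along 3 kb. The 0 was therefore fixed by depth and does not measure false broad domains.

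Broad domains were unevenly spread over the genome. Chromosome 11 held 84, or 0.689 per Mb, and chromosome 19 held 37, or 0.603 per Mb. The sparsest were chromosome 14 with 18 (0.144 per Mb) and chromosome 18 with 15 (0.165 per Mb). As a share of each chromosome's H3K4me3 domains the range was narrower, between 2.88% on chromosome 14 and 5.93% on chromosome 19. A broad domain had its nearest H3K4me3 domain at a median of 11 kb, against 18.0 kb for domains under 3 kb, and 244 of them (32.9%) had one within 5 kb, against 19.8%. Broad domains themselves were mostly isolated, with a median of 490 kb to the next one. Yet 57 lay within 20 kb of another and 16 within 5 kb, among them chr6:41483801-41489600 beside chr6:41491401-41498000 and chr14:54786201-54797000 beside chr14:54797601-54841400.

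The same rule was then run on each H3K4me3 library over its own input, to see in which cell type a pooled domain was broad. CD4 cells gave 557 domains of 3 kb or more and CD8 cells 349. Of the 742 pooled domains, 287 (38.7%, 95% exact binomial interval 35.2 to 42.3) held a domain of 3 kb or more in both libraries. A further 264 (35.6%) did so in CD4 cells only, 56 (7.55%) in CD8 cells only and 135 (18.2%) in neither. The widest domain found alone inside a member had a median of 3400 bp in CD4 cells and 2800 bp in CD8 cells. CD4 cells had the wider one in 482 domains, CD8 cells in 148, and 112 were equal. A difference of at least 1 kb favoured CD4 cells in 226 domains and CD8 cells in 38.

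Narrow CD8 coverage of a member was more often interruption than absence. The CD8 library left 194 members in more than 1 piece, against 93 in the CD4 library, while 7 had no CD8 domain and 6 no CD4 domain. The median share of a member's width covered was 94.7% (quartiles 85.7 and 100%) in CD4 cells and 81.1% (65.1 and 93.3%) in CD8 cells. The lower CD8 background and its fewer distinct positions, given above, accompany this difference, and their part in it was not tested.

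**Figure D1:**
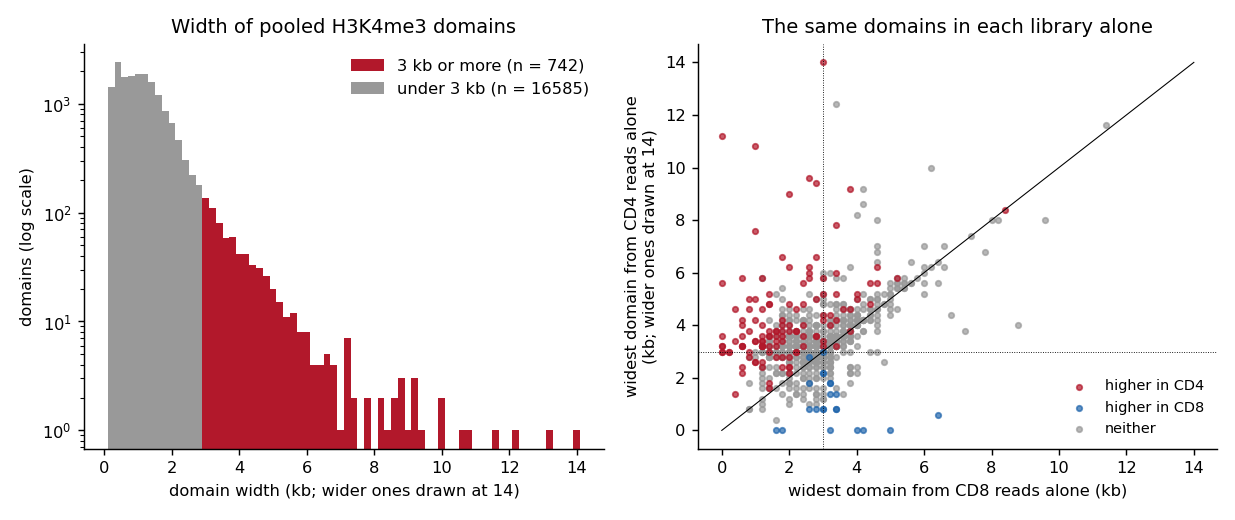
Left, number of domains (log axis) by width in kb, with domains of 3 kb or more in colour. Right, the width in kb of the widest domain called inside each of the 742 members from the CD4 library alone (vertical) and from the CD8 library alone (horizontal), coloured by the H3K4me3 call. The counts fall smoothly through 3 kb, and 482 points lie above the diagonal against 148 below.

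The widest domain was unlike all others in extent. At chr14:54797601-54841400 it ran for 43.8 kb and held 7864 CD4 and 2658 CD8 H3K4me3 reads, with 177 CD4 and 129 CD8 input reads. Relative to all domains it was 4.24-fold higher in CD4 cells (95% interval 4.06 to 4.43). The CD4 library alone gave 1 domain of 42800 bp here, whereas the CD8 library gave 14 domains of at most 3000 bp. Over its 43 whole 1 kb pieces the counts ran between 78 and 305 in CD4 cells and between 4 and 273 in CD8 cells, and the ratio favoured CD4 cells in all 43. In CD4 cells the reads were thus spread over its length without a dominant summit. Next to it, chr14:54786201-54797000 (10.8 kb) had 1355 CD4 reads against 584 in CD8, was 3.32-fold higher in CD4 cells (3.01 to 3.67), and was 10800 bp wide in CD4 cells alone but at most 1000 bp in CD8 cells alone.

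Among the next widest, some were shared and some were not. The domain chr11:52085201-52098400 (13.2 kb) held 8600 CD4 and 6741 CD8 reads and was broad in both libraries, at 11600 and 11400 bp, with a 1.83-fold difference (1.77 to 1.89). At chr17:51961601-51973800 (12.2 kb), with 4452 CD4 and 3349 CD8 reads, the CD4 library alone gave 12400 bp and the CD8 library 4 domains of at most 3400 bp, although the total differed by only 1.90-fold (1.82 to 1.99). The domain chr3:89187601-89199200 (11.6 kb) belonged to CD4 cells, with 5637 CD4 and 53 CD8 reads against 29 and 15 input reads, a 152-fold difference (116 to 204). It was 11200 bp wide in the CD4 library and absent in the CD8 library.

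The remaining 7 of the 12 widest were either not called for H3K4me3 or weighted towards CD4 cells. The domain chr11:70459801-70470400 (10.6 kb) held 5185 CD4 and 6902 CD8 reads, a centred ratio of 1.08 (1.04 to 1.12). Likewise chr4:149069801-149079800 (10 kb) held 4329 CD4 and 5544 CD8 reads, a ratio of 1.12 (1.08 to 1.16), and chr3:130812201-130821400 (9.2 kb) held 4106 and 4229, a ratio of 1.39 (1.33 to 1.45). In this order, the CD4 library alone gave 1 domain at each, of 10000, 8000 and 9200 bp. The CD8 library alone gave 2 domains of at most 6200 bp, 1 of 9600 bp and 2 of at most 4200 bp. Scaling to total reads turned chr11:70459801-70470400 and chr4:149069801-149079800 towards CD8 cells (log2 -0.23 and -0.18). Weighted towards CD4 cells were chr9:44785201-44795200 (10 kb; 5519 CD4 and 2874 CD8 reads, 2.75-fold), chr9:32503001-32512400 (9.4 kb; 5594 and 2178, 3.68-fold), chr11:11584601-11593800 (9.2 kb; 5007 and 2409, 2.98-fold) and chr10:128177401-128186600 (9.2 kb; 6771 and 4643, 2.09-fold). In these 4 the CD4 library alone gave 1 domain of 9000 to 9600 bp and the CD8 library gave 2 to 4 domains, the widest between 2000 and 3800 bp. The call at chr10:128177401-128186600 was lost with scaling to total reads (log2 0.72), and those at it and at chr9:44785201-44795200 were lost with distinct positions (log2 0.87 and 0.86).

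**Figure D2:**
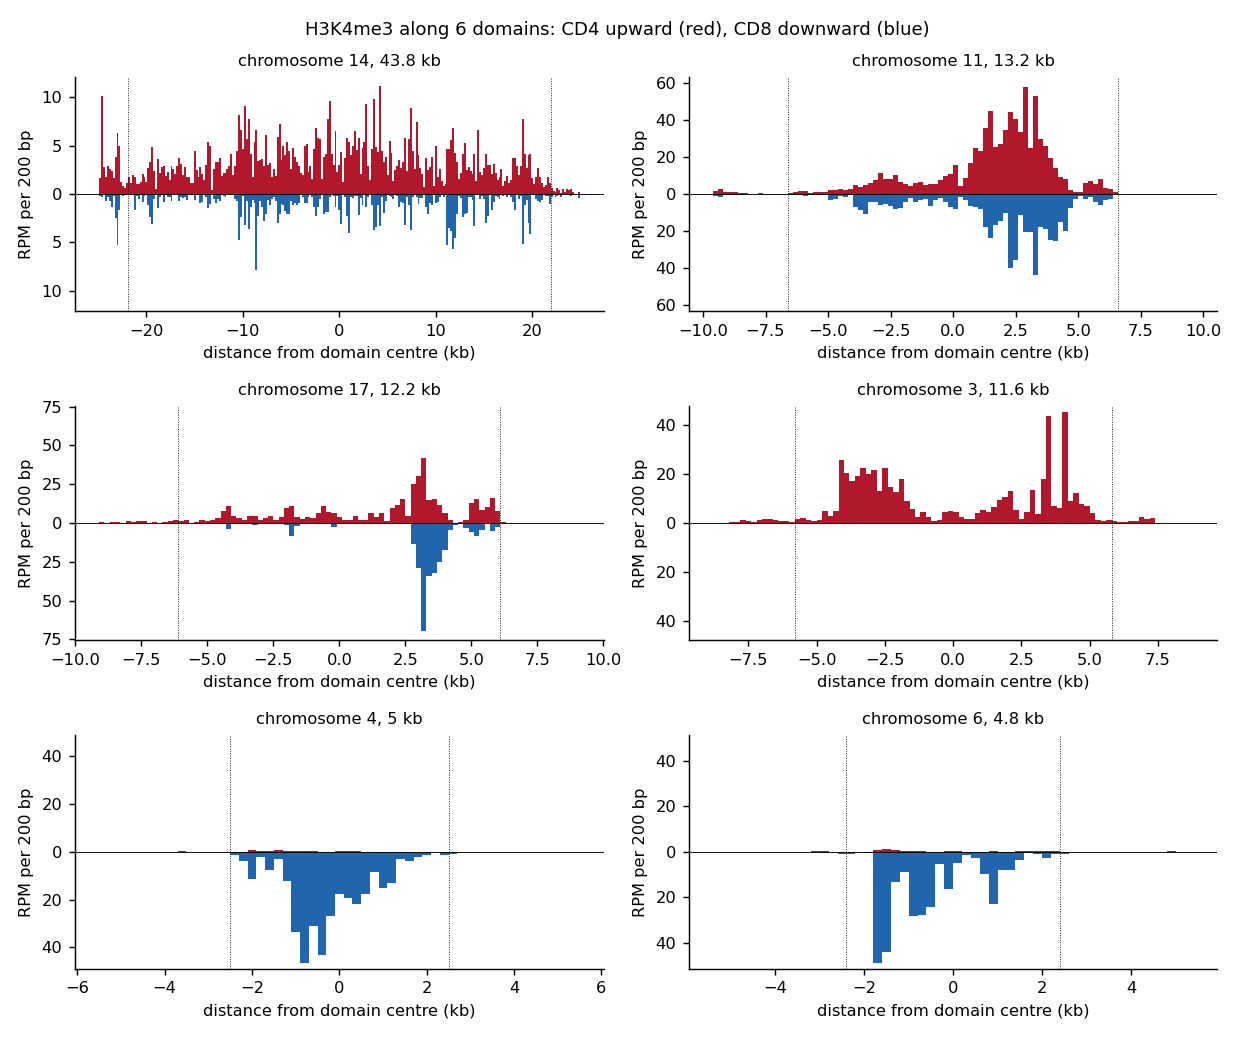
H3K4me3 RPM per 200 bp bin along 6 named domains, by distance from the domain's centre in kb, with dotted lines at its edges, with CD4 cells drawn upwards and CD8 cells downwards. The 43.8 kb domain was marked along its whole length in CD4 cells and interrupted in CD8 cells, the 13.2 kb domain had like profiles in both, and the 11.6 kb domain had 5637 CD4 and 53 CD8 reads.

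Set over all broad domains, H3K4me3 was shifted towards CD4 cells, and among them more so in the wider classes. For each domain the log2 ratio of CD4 over CD8 reads was centred on the median over all 17327 domains. A domain was called where it differed at least 2-fold and its exact interval, at an error level of 0.001, excluded equality. The median log2 ratio over the broad domains was 0.17 (quartiles -0.23 and 0.63), against -0.01 in domains under 3 kb. In CD4 cells 124 of the 742 (16.7%) were called higher, against 18.4% of all domains. In CD8 cells 22 (2.97%) were called higher, against 5.73% of all domains. Both shares were below those of all domains, of which the class under 1 kb had 32.3% called higher in CD4 cells. At 1 to 1.8 kb and 2 to 2.8 kb the CD4 share was 7.58% and 7.27%, lower than among the broad domains.

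From 1 kb upwards the median ratio was higher in each wider class, whereas the class under 1 kb had the highest of all. The median log2 ratio was 0.60 under 1 kb, -0.22 at 1 to 1.8 kb and -0.14 at 2 to 2.8 kb. From 3 kb upwards it was 0.08 at 3 to 3.8 kb, 0.20 at 4 to 4.8 kb, 0.37 at 5 to 7.8 kb and 0.48 at 8 kb or more. The share called higher in CD4 cells was 14%, 16.1%, 25.2% and 38.1% over those last 4 classes, and of the 21 widest 8 were called higher in CD4 cells and 0 in CD8 cells. With each start position counted only one time per library the medians of the 4 classes were 0.09, 0.20, 0.28 and 0.44, with 90 domains (12.1%) called higher for CD4 and 17 (2.29%) for CD8. Of all domains 10.6% and 3.68% were called in this way, so the CD4 share of the broad domains was then above that of all domains and not below it. With all reads counted and the background subtracted, 124 broad domains were called higher for CD4 and 22 for CD8, against 18.3% and 5.69% of all domains. The medians of the 4 classes were then 0.08, 0.21, 0.37 and 0.48.

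The direction of the overall shift depended on scaling. Scaling to total reads lowered every H3K4me3 log2 ratio by 0.34, which put the median over the broad domains at -0.17 and the class medians at -0.25, -0.14, 0.03 and 0.14. By that scaling 82 domains (11.1%) were called higher in CD4 cells and 58 (7.82%) in CD8 cells, against 13.4% and 14.5% of all domains. CD4 cells then took 58.6% of the calls in broad domains, against 84.9% with the centring. The order by width was the same under both, since the shift is one constant.

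**Figure D3:**
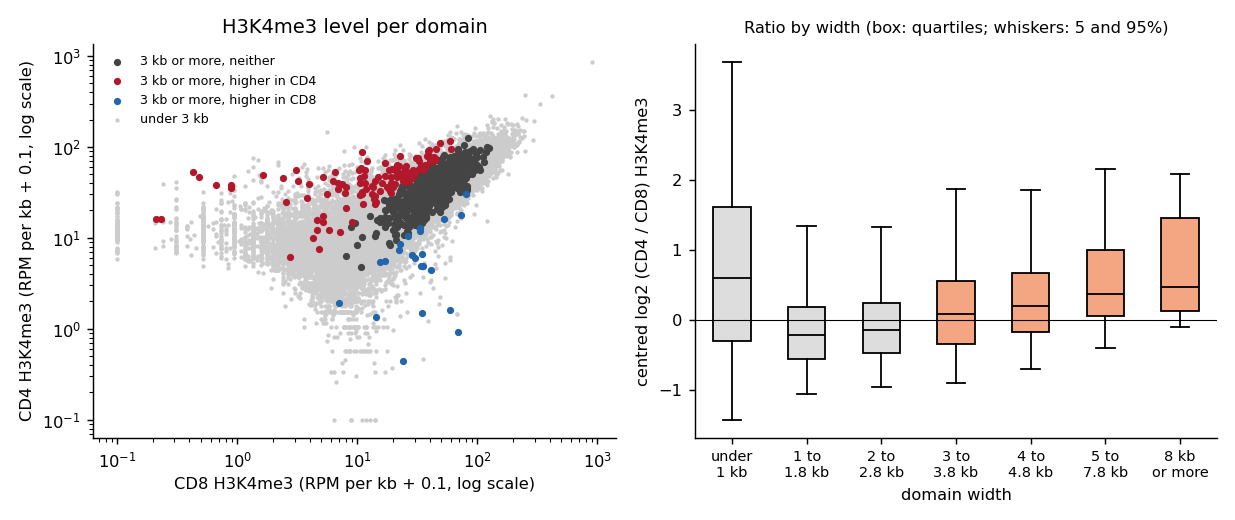
Left, H3K4me3 RPM per kb (plus 0.1, log axes) of each domain in CD4 cells (vertical) and CD8 cells (horizontal), with calls among domains of 3 kb or more in colour. Right, centred log2 ratio of CD4 over CD8 H3K4me3 by width class (box, quartiles and median; whiskers, 5 and 95%), whose median was 0.08 at 3 to 3.8 kb and 0.48 at 8 kb or more.

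A few broad domains were close to exclusive to 1 cell type. The strongest in CD4 cells was chr6:124835001-124838600 (3.6 kb), with 2015 CD4 and 14 CD8 H3K4me3 reads and 15 and 9 input reads, a 206-fold difference (123 to 378). The 11.6 kb domain of chromosome 3 described above came next by its lower bound. Then followed chr4:155387801-155390800 (505 CD4 and 4 CD8 reads, 181-fold, 70.2 to 666), chr16:48769201-48772400 (536 and 5, 154-fold, 65.4 to 475) and chr2:43604201-43607200 (1189 and 20, 85.2-fold, 54.9 to 140). The CD8 library alone gave no domain at any of the 5, and its H3K4me3 reads there numbered 4 to 53, against 7 to 15 CD8 input reads. Away from domains CD8 H3K4me3 lay at only 1.96% of the input level. Subtracting that background left 3.66 to 52.6 of these CD8 reads, so a weak CD8 signal remained.

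In CD8 cells the strongest was chr4:134675601-134680600 (5 kb), with 43 CD4 and 4129 CD8 reads and 19 and 11 input reads, so that CD8 cells were 67.0-fold higher (49.7 to 92.8). A group of 3 lay close together on chromosome 6. There chr6:71302201-71306600 held 16 CD4 and 1260 CD8 reads (55.0-fold higher in CD8, 33.7 to 96.5), chr6:71322801-71327600 held 75 and 3393 (31.6-fold, 25.1 to 40.3), and chr6:71272201-71279400 held 364 and 2900 (log2 -2.48). The last was chosen after its values were seen. Further CD8 domains were chr11:72903801-72907000, with 47 CD4 and 1305 CD8 reads (19.4-fold, 14.5 to 26.5), and chr1:87854001-87857800, with 50 and 637 (8.89-fold, 6.66 to 12.1). The CD4 library alone gave no domain at any of the 5 named by this rule.

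The ratio was not constant along a domain. Each of the 742 was cut into 1 kb pieces, and pieces with at least 50 reads were compared. The spread between a domain's highest and lowest piece had a median of 1.69 on the log2 scale (quartiles 1.08 and 2.68), and 290 domains had a spread of 2 or more. In 38 domains 1 piece was at least 2-fold towards CD4 cells and another at least 2-fold towards CD8 cells. Named domains differed in this respect. The CD4 domain on chromosome 3 had all of its 11 pieces between 4.59 and 8.92, and chr6:71322801-71327600 had its 4 pieces between -5.45 and -4.91, whereas chr17:51961601-51973800 ranged between -1.01 and 9.19. The 9.19 came from a piece with 204 CD4 and 0 CD8 reads. Its size depends on a small constant added to the counts of each piece. The same holds for other large spreads that rest on 0 or 1 CD8 reads.

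In the chromosome 17 domain the piece at 51970601-51971600 held 1191 CD4 and 2264 CD8 reads, while the piece at 51968601-51969600 held 204 CD4 and 0 CD8 reads. A main summit was thus shared and the long body beside it was largely a CD4 signal. Another of the largest spreads was at chr1:193218201-193222000, where 1 kb held 201 CD4 and 0 CD8 reads. The next held 915 and 551 (log2 1.25) and the last 59 and 173 (log2 -1.03). Only whole pieces were compared, which leaves out the rest of this domain's 2475 CD4 and 2516 CD8 reads. At chr6:48654801-48658600 a 1 kb piece held 1656 CD4 reads and 1 CD8 read. Of the 2820 pieces, 10 in 9 domains had at least 100 CD4 reads with at most 1 CD8 read. The reverse held for 3 pieces in 2 domains, chr4:134675601-134680600 and chr6:71302201-71306600.

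Reads within a broad domain were unevenly spread. The highest 200 bp bin held a median of 3.52 times the mean bin, against 1.96 times under 3 kb, where there are fewer bins. It lay at a median of 0.30 of the width from the nearer edge, against 0.36 under 3 kb. In 231 domains (31.1%) 1 side of the midpoint held at least 75% of the reads. The highest bin was the same in both cell types in 312 broad domains (42.0%), against 62.9% of domains under 3 kb. All bins were marked in 310 (41.8%), against 89.1% under 3 kb, so most broad domains contained at least 1 joined gap. Both shares depend on the number of bins, which the width sets. A shared highest bin was found in 69.5% of domains under 1 kb and 51.1% at 2 to 2.8 kb. All bins were marked in 96.0% and 68.0% of these classes.

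H3K36me3, which the choice of domains did not use, was enriched inside many broad domains. Inside the domain, H3K36me3 was at least 2-fold over its matched input in 258 of 742 in CD4 cells (34.8%, 31.3 to 38.3) and in 281 in CD8 cells (37.9%, 34.4 to 41.5). Of all domains 6.83% reached this in CD4 and 4.54% in CD8 cells. The share grew with width, in CD4 and CD8 cells alike. It was 12.1% in CD4 and 11% in CD8 cells at 2 to 2.8 kb, 26.1% and 26.4% at 3 to 3.8 kb, 36.2% and 46.6% at 4 to 4.8 kb, 57.3% and 61.2% at 5 to 7.8 kb, and 95.2% in both, 20 of 21, at 8 kb or more.

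A narrow domain holds few input reads, and its input was taken as at least 3 reads, which lowers its ratio. Reads summed over all domains of a class avoid this. Over the broad domains summed H3K36me3 was 2.48 times the input in CD4 cells and 3.08 times in CD8 cells. It was 5.60 and 6.55 times in the domains of 8 kb or more, and 0.818 and 0.827 times in domains under 3 kb. The widest domain held 852 CD4 and 924 CD8 H3K36me3 reads, 7.23 and 10.5 times its input. The 13.2 kb domain of chromosome 11 held 363 and 230, or 13.6 and 9.15 times. In the CD4 domain of chromosome 3, H3K36me3 inside the domain stood at 60 CD4 reads and 17 CD8 reads, 3.11 and 1.67 times the input.

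**Figure D4:**
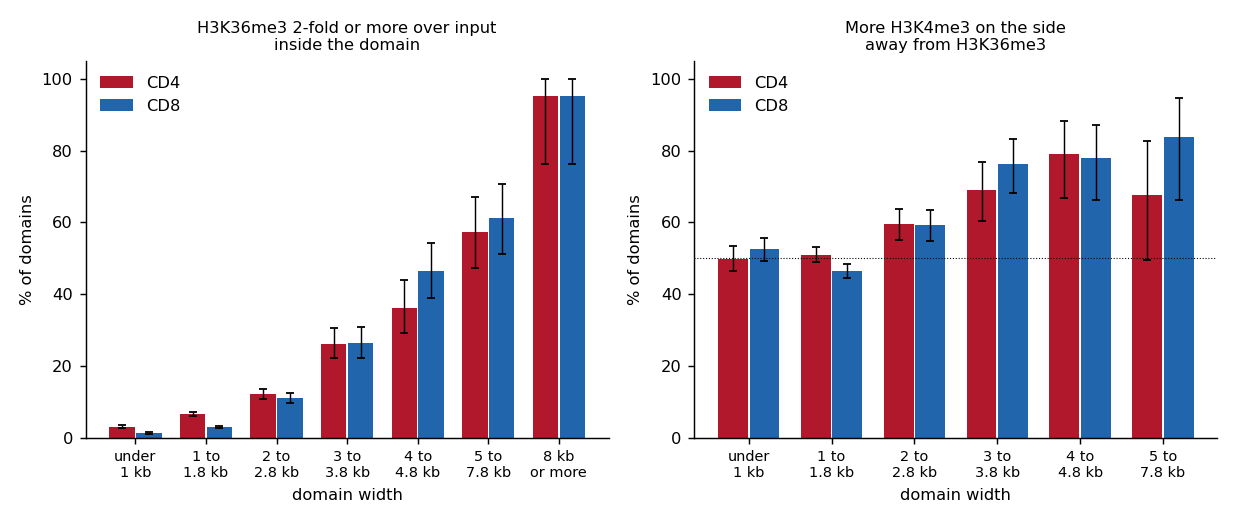
Left, percent of domains with H3K36me3 at least 2-fold over input inside the domain, by width class. Right, among domains with H3K36me3 at least 2-fold over input on 1 side and below input on the other, percent with more H3K4me3 reads on the side away from H3K36me3 (dotted line, 50%; domains of 8 kb or more left out because at most 6 qualified). Bars are CD4 and CD8 cells with 95% exact binomial intervals, and the left shares reach 95.2% at 8 kb or more.

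In the domain and its surroundings together the mark was also frequent. Over the domain and 10 kb on each side, H3K36me3 was at least 2-fold over input at 399 broad domains in CD4 cells (53.8%, against 35.2% of all domains) and at 429 in CD8 cells (57.8%, against 35.8%). Domains of 2 to 2.8 kb were closer to this, at 45.3% in CD4 and 48.3% in CD8 cells. Most broad domains had H3K36me3 at this level on 1 side. In CD4 cells 427 broad domains had H3K36me3 at least 2-fold over input on 1 side (37.3% of all domains), 112 on both (11.7% of all) and 203 on neither (51% of all). In CD8 cells these numbers were 433 (37% of all domains), 119 (11.8%) and 190 (51.2%). The side was shared between cell types, since of 358 domains with 1 such side in both, 356 had it on the same side. At 146 domains no side reached the level in either cell type, and at 21 both sides were below input in both.

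H3K4me3 itself was lopsided with respect to H3K36me3. Domains were taken that had H3K36me3 at least 2-fold over input on 1 side and below input on the other. More H3K4me3 reads lay on the side away from H3K36me3 in 162 of 226 broad domains in CD4 cells (71.7%, 65.3 to 77.5) and in 187 of 240 in CD8 cells (77.9%, 72.1 to 83.0). Of all domains the share was 53.1% in CD4 and 51.3% in CD8 cells, and under 3 kb it was 52.0% and 49.6%. Even at 2 to 2.8 kb the share was 59.5% and 59.2%, between those of the narrower and the broad domains.

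The profile along the domain was drawn from the 156 broad domains (21.0%) that met this on the same side in both cell types, turned so that H3K36me3 lay to the right. H3K4me3 was highest at 20 to 30% of the width, at 67.6 RPM per kb in CD4 and 78.4 in CD8 cells, and declined to 13.2 and 10.1 in the last 10% of the width. The side away from H3K36me3 held 1.68 times the H3K4me3 of the other in CD4 cells and 2.05 times in CD8 cells. In 2245 domains of 1 to 2.8 kb turned the same way these values were 1.09 and 0.998. H3K36me3 over input within the broad domains was 0.61 in CD4 and 0.63 in CD8 cells in the first 10% of the width and 2.41 and 2.91 in the last. It was 3.13 in CD4 and 3.36 in CD8 cells at 50 to 60%, where H3K4me3 was still at 49.2 and 45.4 RPM per kb. Summed over these domains, both marks were therefore counted over the same stretch, each in its own library. The sums do not show overlap within a given domain, and bulk reads do not show whether the marks share a nucleosome or a cell. The turning used H3K36me3 outside the domain, so the rise of that mark to the right beyond the edge is fixed by the choice.

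**Figure D5:**
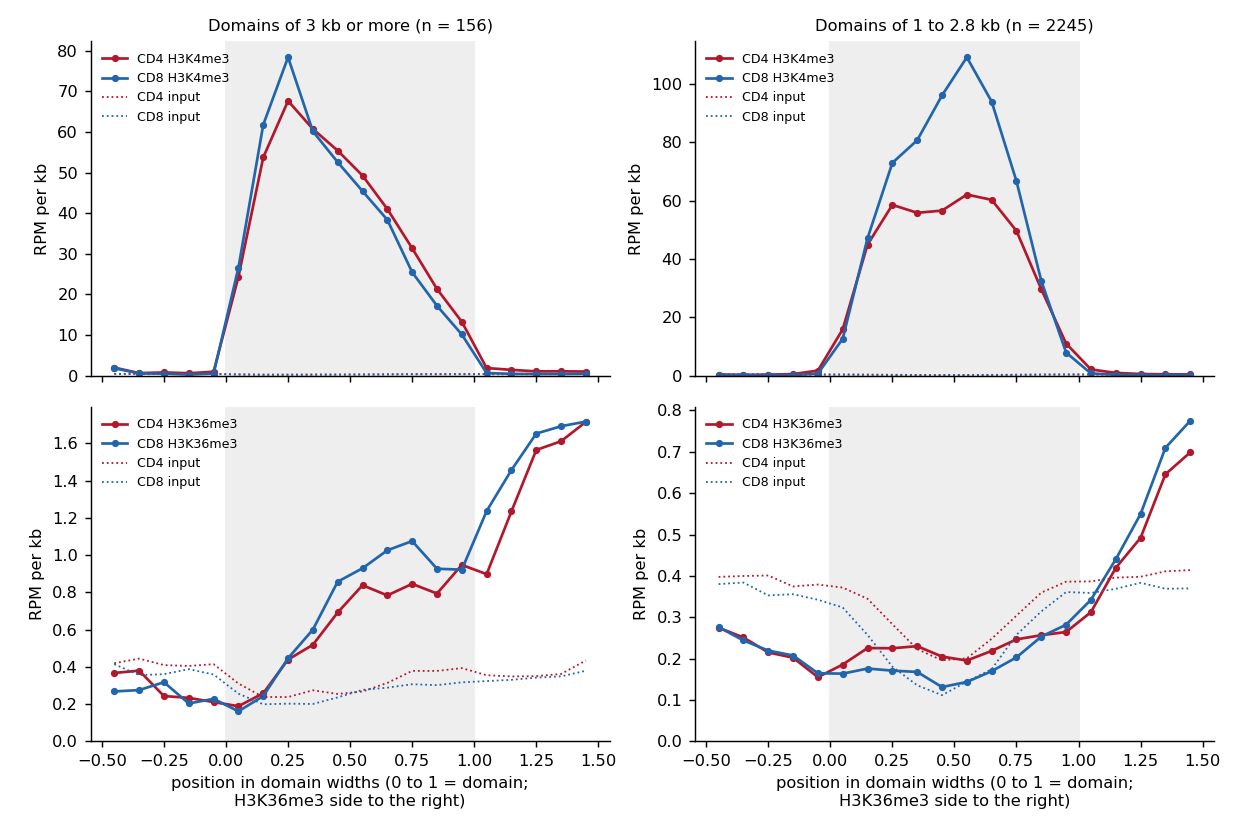
H3K4me3, H3K36me3 and input RPM per kb along domains turned so that H3K36me3 lies to the right, by position in domain widths, for 156 domains of 3 kb or more and 2245 domains of 1 to 2.8 kb, in CD4 and CD8 cells. In broad domains H3K4me3 peaks at 20 to 30% of the width and H3K36me3 exceeds input from 10% of the width on, while in the narrower ones H3K4me3 is close to symmetric.

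The extremes of H3K36me3 near broad domains lay in few places. Highest relative to input was chr6:41483801-41489600 (5.8 kb), with 355 CD4 and 474 CD8 H3K36me3 reads within 10 kb over 39 and 49 input reads, or 13.7 and 14.2 times the input. Its neighbour chr6:41491401-41498000 (6.6 kb) stood at 7.14 and 10.6 times. Both were higher in H3K4me3 in CD4 cells, with 2885 CD4 and 775 CD8 reads (5.33-fold, 4.92 to 5.78) and 3543 and 1710 reads (2.97-fold, 2.8 to 3.15). Their flanks overlap, so they are not independent. The third, chr7:17427401-17431400 (4 kb), had 8.84 and 8.66 times the input with 3118 CD4 and 4536 CD8 H3K4me3 reads. It held 412 CD4 and 353 CD8 H3K36me3 reads within 10 kb, over 70 and 60 input reads. In CD4 cells that was more H3K36me3 reads than at chr6:41483801-41489600, whose input was lower.

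At the other end, pooled broad H3K4me3 domains were found with H3K36me3 below input. The domain chr5:133017001-133020000 held 57 CD4 and 246 CD8 H3K4me3 reads, and its H3K36me3 within 10 kb was 0.37 times the input in CD4 and 0.30 in CD8 cells. At chr5:53980001-53983000, with 329 CD4 and 947 CD8 H3K4me3 reads, the values were 0.46 and 0.38 times. At chr3:41367001-41370200, with 649 and 1171, they were 0.56 and 0.29 times. All 3 were close to the width threshold, at 3 to 3.2 kb, and inside them 1 CD4 H3K36me3 read or none, and no CD8 read, was counted. At the first, the CD4 library alone gave no H3K4me3 domain and the CD8 library at most 1600 bp. At the second the widest was 2800 bp in CD4 and 2600 bp in CD8 cells, and at the third 2600 and 3200 bp. The first and the second were called higher in CD8 cells for H3K4me3.

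Between CD4 and CD8 cells H3K36me3 differed at few broad domains. Over the domain and 10 kb on each side, 2 (0.270%) were called higher in CD4 cells, against 0.704% of all domains, and 10 (1.35%) in CD8 cells, against 0.531%. The 2 were chr8:73130801-73136000, with 148 CD4 and 64 CD8 H3K36me3 reads, and chr10:80038801-80041800, with 89 and 33, neither of them called for H3K4me3. These and the other domains of this and the next paragraph that were not named before were chosen after their values were seen. As a count, this lean towards CD8 cells depended on scaling. The share called higher in CD8 cells stayed above that of all domains in the settings below, at 0.809% and 7.01%. Scaling to total reads moved the H3K36me3 centre by -0.11 on the log2 scale and gave 6 calls in each direction, against 1.37% of all domains higher in CD4 and 0.271% higher in CD8 cells. Subtracting the background gave 43 calls higher in CD4 and 52 higher in CD8 cells, against 6.13% and 3.76% of all domains.

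Of the 10 called higher in CD8 cells, 3 were also called higher in CD8 cells for H3K4me3, 4 were called higher in CD4 cells and 3 were not called. The 3 that moved alike were chr6:71322801-71327600, with 75 CD4 and 337 CD8 H3K36me3 reads (log2 -2.27), chr6:71272201-71279400, with 138 and 521 (log2 -2.02), and chr1:87854001-87857800, with 52 and 111 (log2 -1.20). Opposed was chr15:9456801-9459800, with 201 CD4 and 374 CD8 H3K36me3 reads (log2 -1.0) beside 1317 CD4 and 111 CD8 H3K4me3 reads (log2 4.09). Also opposed were chr1:53838001-53842600, chr3:60304601-60307800 and chr11:20991001-20994600, whose H3K4me3 log2 ratios were 1.40, 1.85 and 1.84 and whose H3K36me3 log2 ratios were -1.10, -1.13 and -1.08. Not called for H3K4me3 were chr2:6640201-6643400, chr9:123676001-123679000 and chr12:25391601-25394600.

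H3K36me3 at the near-exclusive H3K4me3 domains differed less than H3K4me3 did, and of the 10 domains named for their H3K4me3 ratio 2 were called, both in CD8 cells. At the CD4 domain chr6:124835001-124838600, H3K36me3 had 249 CD4 and 121 CD8 reads within 10 kb (log2 0.94), just under the 2-fold needed for a call. At the other 4 CD4 domains the log2 ratio lay between -0.24 and 0.17, with 95% intervals that included 0. All 5 CD8 domains had more H3K36me3 in CD8 cells. The flanks of chr6:71302201-71306600 overlap those of the called domain on chromosome 6, so this pair is not independent. Beside the 2 called, chr6:71302201-71306600 had 97 CD4 and 168 CD8 reads (log2 -0.90, -1.27 to -0.53) and chr11:72903801-72907000 had 115 and 181 (log2 -0.76, -1.11 to -0.42). The interval at chr4:134675601-134680600, with 76 and 94 reads, included 0 (log2 -0.41, -0.87 to 0.04). Where H3K4me3 was called higher in CD4 cells the median H3K36me3 log2 ratio was -0.21, where it was called higher in CD8 cells -0.12, and elsewhere -0.04. Over the 742 domains the 2 ratios had a Pearson correlation of 0.00165 and a Spearman correlation of -0.03, as a description over domains that share the same 4 libraries.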

How the data were processed

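The deposited files give the start and end of each aligned read of 33 bp, with no strand and no normalization, with mm9 as the build named by the submitters' processing notes. Not given in the sources used here: how reads were aligned and whether repeated or multiply matching ones were removed. Every read line was counted at its midpoint, and an offset of 1 bp in the starts is possible.

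Domains, reads, ratios and exact Clopper-Pearson intervals were computed with Python 3.11.15, NumPy 2.4.6, pandas 2.3.3 and SciPy 1.17.1, and figures with matplotlib 3.10.9. The procedure was tested on simulated data. The members, the rules and the lists were chosen with earlier results of these data known. Named were the 12 widest domains, the 5 in each direction with the largest lower 95% bound of the H3K4me3 fold, the 3 highest and 3 lowest for H3K36me3 over input within 10 kb, and 2 on each side of the width threshold. The background was measured in 2 kb windows at least 10 kb from a domain. Alternatives changed the repeated reads, fold, gaps, input floor, bins, depth, width, scaling, background, flanks and input. No gene list was applied.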

Additional observations from a re-analysis of the deposited data

Results flagged for a closer look

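Chromosome X lies outside the comparisons above, which used chromosomes 1 to 19. The same rule gave 25 domains of 3 kb or more there, among 504 H3K4me3 domains (4.96%), or 0.150 per Mb. With an input library in place of the precipitate it gave 0, which the low input depth fixed in advance. The median width of the 25 was 3400 bp and the widest measured 5000 bp. The median centred log2 ratio of CD4 over CD8 H3K4me3 was 0.53, with 4 called higher in CD4 cells and 0 in CD8 cells. It is listed because it is a signal above the input in data that the comparisons did not use.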

How the results depend on the processing

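No paired analysis was possible because each group has 1 library and the labels carry no replicate numbers. For the same reason no library could be left out. Over the summary results, 75 values under the alternatives moved and 2 reversed. The other 134 stayed within 1.5 times the reported value for counts and calls, within 1 bin for the median width, or within the reported value's 95% interval, and over the named domains 85 kept direction and call.

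The number of domains was 1102 with 1 read per position and 1103 with an input floor of 1 read, just within 1.5 times the reported number. It became 487 at 8 times the input, 491 with an input floor of 6 reads, 2571 at a width of 2000 bp or more (median 2400 bp), 124 at 5000 bp or more (median 5800 bp) and 349 from the CD8 libraries alone. The median H3K4me3 log2 ratio of CD4 over CD8 reversed to -0.048 at 2000 bp or more and to -0.17 with scaling to total reads. The first set adds the 1829 domains of 2 to 2.8 kb, whose median was -0.14, and the second is the constant shift given above. Elsewhere the median moved to 0.11 with 1 read per position, 0.26 at 8 times the input, 0.074 and 0.25 with input floors of 1 and 6 reads, 0.39 at 5000 bp or more and 0.24 in domains of CD8 cells alone.

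The percentage called higher in CD4 cells for H3K4me3 moved to 10.5 with 1 read per position, 12.1 with distinct positions in the same domains, 12.5 with these and the background subtracted, 9.996 at 2000 bp or more, 27.4 at 5000 bp or more, 11.1 with scaling to total reads, 7.95 at 3-fold and 10.3 in domains of CD8 cells alone. The percentage called higher in CD8 cells moved to 1.85 at 8 times the input, 1.61 at 5000 bp or more, 7.82 with scaling to total reads, 1.75 at 3-fold and 0.359 in domains of CD4 cells alone.

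The percentage broad in both libraries moved to 30.6 at 8 times the input, 30.1 and 45.4 with gaps of 200 and 1000 bp, 46.8 and 30.3 with input floors of 1 and 6 reads, 46.9 at 2000 bp or more, 30.6 at 5000 bp or more, 51.5 in domains of CD4 cells alone and 83.4 in domains of CD8 cells alone.

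For H3K36me3 within 10 kb, the percentage at least 2-fold over input in CD4 cells moved to 60.0 at 8 times the input, 59.5 with a floor of 6 reads, 47.8 at 2000 bp or more, 72.6 at 5000 bp or more and 57.9 in domains of CD8 cells alone. In CD8 cells it moved to 51.0 at 2000 bp or more, 74.2 at 5000 bp or more and 53.8 with flanks of 5 kb. Inside the domain it moved, in CD4 and CD8 cells, to 41.7 and 44.1 at 8 times the input, 40.9 and 44.0 with a floor of 6 reads, 18.6 and 18.7 at 2000 bp or more, 63.7 and 66.9 at 5000 bp or more, and 39.9 and 41.5 in domains of CD4 cells alone, and to 39.0 in CD4 cells in domains of CD8 cells alone. The percentage with more H3K4me3 away from H3K36me3 moved to 63.2 in CD4 and 65.0 in CD8 cells at 2000 bp or more, 83.8 in CD8 cells at 5000 bp or more, and 62.8 and 72.1 in domains of CD8 cells alone.

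The percentage called higher for H3K36me3 moved to 5.80 in CD4 and 7.01 in CD8 cells with background subtracted, which for this mark lay at 86.1% and 86.3% of the input, and to 0 and 0.270 at 3-fold. In both cell types it moved to 0.616 at 8 times the input, 0.611 with a floor of 6 reads, 0.806 at 5000 bp or more and 0.809 with scaling to total reads. It moved to 0.539 and 0.718 in domains of CD4 cells alone and to 0.573 and 0.860 in domains of CD8 cells alone. The ratio reversed with scaling to total reads at chr11:70459801-70470400 (log2 -0.23) and chr4:149069801-149079800 (log2 -0.18), by the same constant, and with distinct positions at chr2:13495001-13498000 (log2 0.10; the cause was not tested). With distinct positions chr17:51961601-51973800 passed the 2-fold needed for a call (log2 1.21) and chr5:53980001-53983000 no longer did (log2 -0.83). Domains called in 1 cell type, and both counts of distinct positions, were added after seeing the data. A pooled bin needed 13.7 H3K4me3 reads to be marked at the input floor, so weaker stretches could not be marked at this depth.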
